A study of Rattus norvegicus with 16 samples.

Results

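The guidance cues described here are the semaphorins of classes 3 to 7, their plexin and neuropilin receptors, the ephrins and their Eph receptors, the Slits and Robos, and the netrins with their receptors Dcc and Unc5. Members were found by gene symbol, among probe sets that carry a single symbol. The gene-level table held 56 such probe sets of 21371, for 55 genes, and the exon-level table held 1251 of 213067, for 66 genes. Total RNA of male embryonic kidneys had been biotin-labelled and hybridised to Affymetrix rat gene arrays, per the labels. The MWF group was Munich Wistar Frömter kidney at E15.5, from a rat strain known for inherited albuminuria and a low nephron number. The SHR group was kidney of the spontaneously hypertensive rat at E16.0. No treatment or engineered allele was given for either strain. Each strain had 4 arrays, and the same 8 arrays were summarised at both levels. Strain and embryonic day cannot be told apart, and each difference below is a difference of strain and day together. Nothing in the labels says that the 4 kidneys of a strain are from different animals or litters, and the p-values then measure the spread between these samples, which may be technical.

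Guidance cues were first described in growing axons, where secreted or membrane-bound ligands attract or repel a cell that carries the matching receptor. Semaphorins signal through plexins, with neuropilins as co-receptors of the secreted class 3 members. Ephrins and Ephs signal between touching cells, Slits repel through Robos, and netrins attract through Dcc or repel through Unc5. In the mouse kidney, Slit2 and Robo2 restrict where the ureteric bud grows out, and class 3 semaphorins act on branching, on vessels and on podocytes.

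The symbol rule took Unc50 and Unc5cl by their prefix, although neither is a netrin receptor, which leaves 53 guidance genes at gene level and 64 at exon level. RefSeq lists 70 protein-coding rat genes that the rule would take. Efna3, Ephb4, Plxna1 and Unc5d were not analysed here. Epha4, Epha6, Ntn4, Plxna4, Plxnb1, Plxnc1, Sema3g, Sema4b, Sema4d, Sema6a and Slit2 were measured at exon level and not at gene level. No filter on low values was set. Values are log2 intensities, which are compared between arrays and not between genes, and differences are MWF minus SHR on that scale.

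The kidney markers Wt1, Pax2, Ret, Gata3 and Lhx1 lay above 6.56, the 10th percentile of all gene-level values, on every array, with Wt1 between 10.03 and 10.16. Correlations between arrays, taken across probe sets, were 0.979 to 0.992 inside a strain and 0.971 to 0.986 from strain to strain. SHR replicate 2 stood apart from the other SHR arrays. The mean of Th, Dbh, Chga and Chgb, genes of sympathoadrenal cells, was 6.03 on it, against 10.78, 10.99 and 11.16 on SHR replicates 1, 3 and 4. On the MWF arrays that mean was 8.14, 6.14, 6.29 and 6.30. All 10 measured genes of a 12-gene sympathoadrenal list lay lower in MWF, and 1 of them passed the test. All 12 measured genes of a 14-gene list for neurons and glia also lay lower, and 1 was called. That list had a mean of 7.09 to 7.28 in MWF and of 8.06, 7.12, 8.22 and 8.31 in SHR. Of a 13-gene stroma list 12 were measured, 10 below 0 and 1 called lower. The stroma list mean lay between 10.24 and 10.46 in MWF and at 10.72, 10.33, 10.77 and 10.79 in SHR. Of a 12-gene endothelium list 10 were measured, 9 below 0 and 0 called. Its mean lay between 8.83 and 8.95 in MWF and at 9.01, 8.79, 9.11 and 9.19 in SHR. All 8 genes of a macrophage list were measured, 7 below 0 and 3 called lower. The macrophage list mean lay between 7.31 and 7.71 in MWF and at 8.07, 7.63, 8.22 and 8.36 in SHR. The nephron progenitor, early nephron, podocyte and adrenal cortex lists had genes on both sides of 0. The ureteric bud, red cell and liver lists lay higher in MWF. All 11 measured genes of a 12-gene ureteric bud list lay above 0 and 3 were called, with a list mean of 9.04 to 9.11 in MWF and of 8.79, 9.001, 8.70 and 8.73 in SHR. Of 8 red cell genes 6 were measured, all above 0 and 3 called, with a mean of 8.87 to 9.91 in MWF and of 8.72, 8.75, 8.25 and 8.35 in SHR. Of 8 liver genes 6 were measured, all above 0 and 0 called, with a mean of 7.46 to 10.04 in MWF and of 9.99, 8.73, 7.001 and 7.60 in SHR. The part of these cells in the results below was not tested, except for the sympathoadrenal mean as a covariate, which itself largely follows strain. Guidance genes are used in nerves, vessels and stroma as well as in kidney epithelium, so results that rest on SHR replicate 2 are given with and without it. In bulk tissue, fewer cells of a type and less RNA per cell cannot be told apart.

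At gene level, 4 guidance genes differed between the strains. Sema3d, a secreted class 3 semaphorin, was higher in MWF kidneys. Efna1, a membrane-anchored ligand of EphA receptors, Ephb1, a receptor of B-class ephrins, and Dcc, a netrin receptor, were lower. The test was limma's moderated test over all probe sets at a Benjamini-Hochberg adjusted p under 0.05. These 4 calls were 7.14% of the 56 member probe sets, beside 6.58% called over all probe sets (3.18% higher and 3.4% lower), a share near the background. Of all members, 33 lay below 0 and 23 above, with a median difference of -0.05 beside 0.02 over all probe sets. Over all probe sets, 43.7% lay below 0. Values of the strains were fully apart in 10 members, beside 14.4% of all probe sets. In 46 of the 56 member probe sets the strains were less than 1.2-fold apart, as they were in 17715 of all 21371. Dcc, whose MWF values were at the dim end of the scale, was the only member called at 1.5-fold or more in this fit, beside 2.06% of all probe sets.

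**Figure D1:**
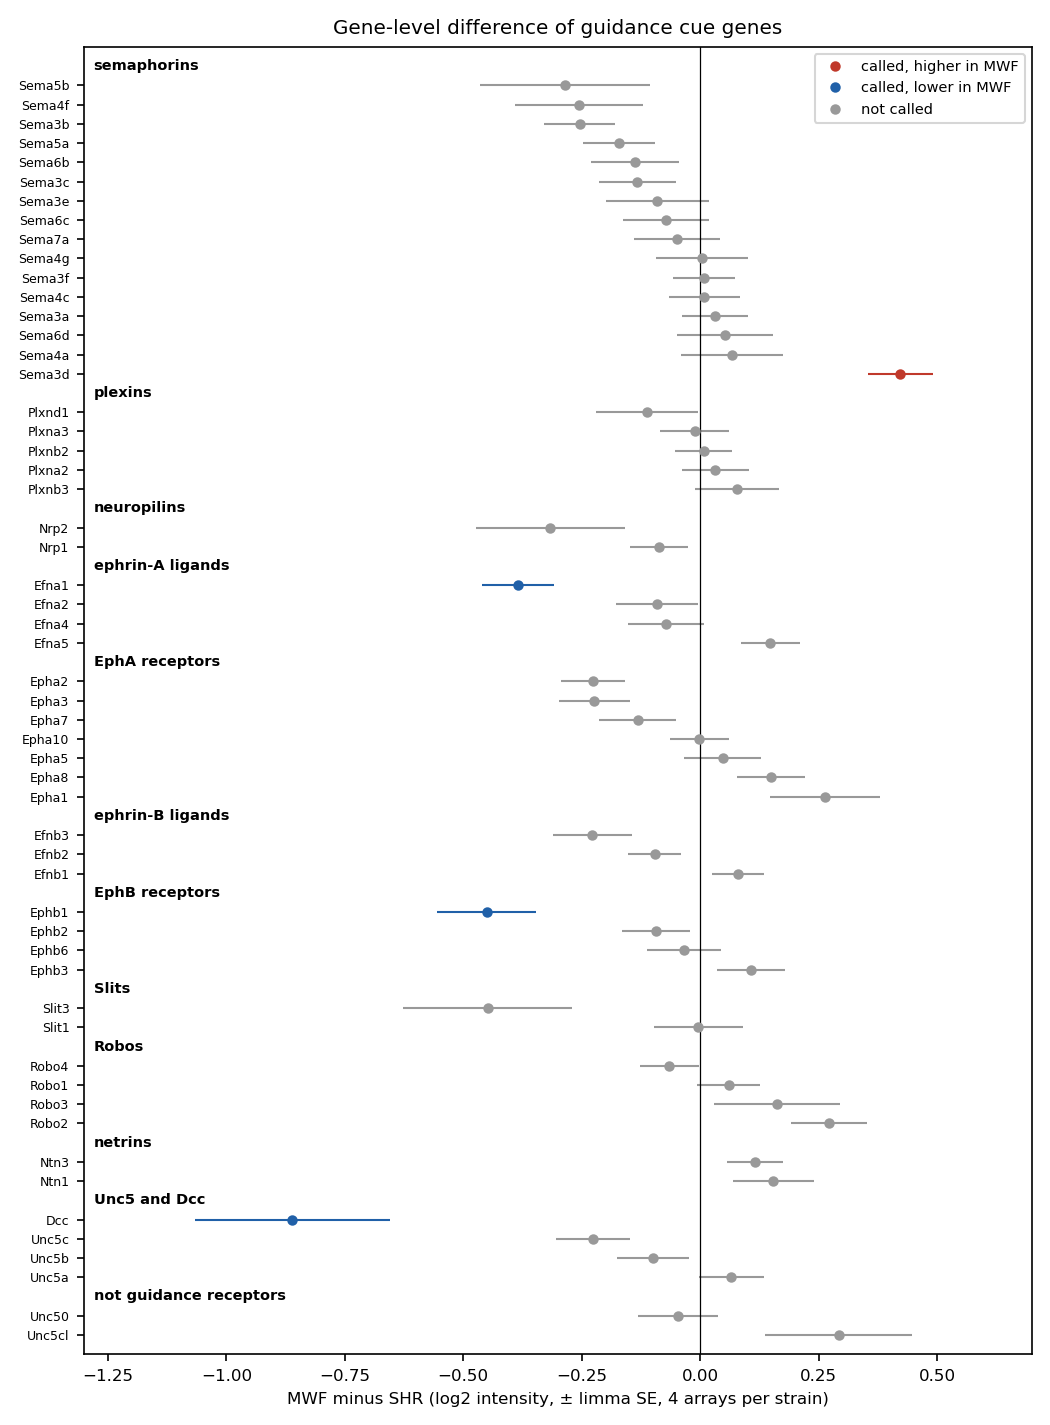
Gene-level difference of each member gene, MWF minus SHR on the log2 scale, with the limma standard error, grouped by family (Sema4c is shown by its brighter probe set). Most points lie within 0.3 of 0, with Sema3d at 0.42, Efna1 at -0.38, Ephb1 at -0.45 and Dcc at -0.86 as the called genes.

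The promoters of the 4 called genes are printed because they show how unlike the start regions of genes that passed the same test can be. Each runs from 250 bases before to 50 bases after the gene's start, from RefSeq on assembly GRCr8, with each CG dinucleotide in capitals, the site at which cytosine is methylated in mammals. All 4 genes lie on the minus strand: Sema3d at chr4:23460922-23461221, Efna1 at chr2:176986772-176987071, Ephb1 at chr8:111823710-111824009 and Dcc at chr18:68247625-68247924.
Sema3d: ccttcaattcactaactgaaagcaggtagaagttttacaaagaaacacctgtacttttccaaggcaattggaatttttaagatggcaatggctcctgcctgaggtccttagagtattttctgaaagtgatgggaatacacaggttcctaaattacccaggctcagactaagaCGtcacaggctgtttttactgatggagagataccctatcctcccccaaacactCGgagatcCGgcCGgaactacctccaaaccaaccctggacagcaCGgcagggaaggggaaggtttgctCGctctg
Efna1: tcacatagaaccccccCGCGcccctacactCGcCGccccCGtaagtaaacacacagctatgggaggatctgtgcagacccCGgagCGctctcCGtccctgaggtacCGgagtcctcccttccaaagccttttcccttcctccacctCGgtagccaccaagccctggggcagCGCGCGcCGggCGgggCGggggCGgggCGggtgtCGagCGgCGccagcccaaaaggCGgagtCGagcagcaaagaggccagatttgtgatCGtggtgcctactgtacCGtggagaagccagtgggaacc
Ephb1: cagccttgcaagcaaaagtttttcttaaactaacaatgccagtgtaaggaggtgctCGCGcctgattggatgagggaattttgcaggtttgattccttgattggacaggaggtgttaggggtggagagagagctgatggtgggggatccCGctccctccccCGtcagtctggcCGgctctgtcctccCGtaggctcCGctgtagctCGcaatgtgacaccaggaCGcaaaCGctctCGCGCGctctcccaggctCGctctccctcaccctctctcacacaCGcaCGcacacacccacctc
Dcc: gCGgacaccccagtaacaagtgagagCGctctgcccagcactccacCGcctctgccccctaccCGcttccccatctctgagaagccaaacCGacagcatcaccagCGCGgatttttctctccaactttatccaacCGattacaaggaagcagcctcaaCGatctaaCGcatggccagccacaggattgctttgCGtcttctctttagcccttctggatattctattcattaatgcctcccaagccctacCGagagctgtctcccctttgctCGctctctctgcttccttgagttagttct

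The Sema3d promoter held 6 CG dinucleotides, the Efna1 promoter 25, the Ephb1 promoter 16 and the Dcc promoter 13. Over 53 members with a promoter in the table the median was 18, beside 7 over all 33469 promoters. All promoters were taken without a filter on gene type, whereas the members are protein-coding genes, so the sets are unlike. None of the 53 held the letters TATAAA on either strand, which 14.2% of all promoters of that length held. The letters CAGCTG, which read the same on both strands and form an E-box, were in 13 of the 53 and in 15.1% of all promoters, and in none of the 4 printed. These are descriptions of the letters in the window.

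Sema3d lay at 11.51, 11.46, 11.45 and 11.39 in MWF replicates 1 to 4 and at 11.17, 10.91, 10.99 and 11.05 in SHR replicates 1 to 4. Every MWF array was above every SHR array, SHR replicate 2 included. The difference was 0.42 ± 0.07 (SE), 1.34-fold, with a limma adjusted p of 0.00741. It remained called with each array left out in turn, at 0.38 to 0.47. With the sympathoadrenal mean as a covariate it was 0.52, with a limma adjusted p of 0.0182. With the median of its exon probe sets in place of the gene-level value, the difference was 0.28 and the limma adjusted p 0.112.

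No other semaphorin passed the test, and 10 of the 17 semaphorin probe sets lay below 0. Sema3b, another secreted class 3 member, ranged from 7.41 to 7.56 in MWF and from 7.66 to 7.93 in SHR, and the strains did not overlap. Its difference was -0.25 with a limma adjusted p of 0.0800. Sema3a, which repels growing axons and endothelial cells, ranged from 9.32 to 9.50 in MWF and from 9.26 to 9.45 in SHR. Its difference was 0.03, and in GRCr8 no protein-coding gene lies between it and Sema3d on chromosome 4. Sema3c, Sema3e and Sema3f differed by -0.13, -0.09 and 0.01. Among the membrane-bound classes, Sema5b had the lowest difference, -0.29, with SHR replicate 2 at 7.18 and the other SHR arrays between 7.84 and 7.92. Its MWF arrays lay between 7.19 and 7.70, so SHR replicate 2 lay below them. Sema4c had 2 probe sets that disagreed. The brighter was level at 0.01, and the dimmer differed by -0.23 without overlap, with a limma adjusted p of 0.0856.

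The plexins, the signalling receptors of semaphorins, differed by -0.11 to 0.08 in the 5 genes measured at gene level, and none passed the test. Plxnd1, a receptor for Sema3e in endothelial cells, had the smallest p among them, with a difference of -0.11 ± 0.11 and a limma adjusted p of 0.593, and its sign turned with the sympathoadrenal covariate, at 0.0909. The neuropilins bind class 3 semaphorins and vascular endothelial growth factor. Nrp2 lay at 9.29, 9.08, 9.34 and 9.20 in MWF and at 9.71, 9.03, 9.63 and 9.80 in SHR. SHR replicate 2 was below every MWF array and the other 3 SHR arrays were above all of them. The difference was -0.32 ± 0.16 with a limma adjusted p of 0.274, and -0.49 with a limma adjusted p of 0.00651 without SHR replicate 2. With the sympathoadrenal covariate its sign turned, at 0.0689 with a limma adjusted p of 0.799. Nrp1 differed by -0.09.

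Among the ephrins and Ephs, Efna1 lay at 8.75, 8.77, 8.78 and 8.94 in MWF and at 9.13, 9.06, 9.27 and 9.31 in SHR. All SHR arrays were above all MWF arrays. The difference was -0.38 ± 0.08, 1.31-fold, with a limma adjusted p of 0.0202. The call ended when MWF replicate 1, 2 or 3 was left out, and when SHR replicate 3 or 4 was. The differences were then -0.37 to -0.35, with limma adjusted p of 0.0529 to 0.0617. In these fits 3.63% to 4.54% of all probe sets were called. The difference was -0.30 with a limma adjusted p of 0.174 with the sympathoadrenal covariate. Efna4, which is separated from Efna1 by 1 protein-coding gene on chromosome 2, differed by -0.07. Efna5 lay just above SHR on every MWF array, between 10.51 and 10.76 against 10.47 to 10.50. That difference, 0.15 with a limma adjusted p of 0.202, did not pass.

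Ephb1 lay at 6.82, 7.05, 7.04 and 6.94 in MWF and at 7.51, 7.12, 7.56 and 7.46 in SHR. The strains did not overlap, and SHR replicate 2 was the SHR array nearest to MWF. The difference was -0.45 ± 0.10, 1.37-fold, with a limma adjusted p of 0.0346. Without SHR replicate 2 it was -0.55 with a limma adjusted p of 0.00275. Leaving out any other single array ended the call, at differences of -0.48 to -0.40 and limma adjusted p of 0.0657 to 0.0943. In these fits 3.63% to 4.54% of all probe sets were called. With the sympathoadrenal covariate the difference was -0.29 and the limma adjusted p 0.275.

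The other Eph receptors did not pass. Epha2, an epithelial receptor of A-class ephrins, ranged from 7.31 to 7.42 in MWF and from 7.49 to 7.73 in SHR. The strains did not overlap, and the difference was -0.23 with a limma adjusted p of 0.0845. Epha1 lay at 7.37, 7.39, 7.34 and 7.45 in MWF and at 6.93, 7.50, 7.04 and 7.02 in SHR, so SHR replicate 2 was the highest of all 8 arrays and the other SHR arrays were the lowest. Its difference was 0.26 with a limma adjusted p of 0.218, and it was called higher without SHR replicate 2. The medians of its exon probe sets differed by 0.42 with a limma adjusted p of 0.0427, the only member called on medians, beside 4.96% of all genes. Efnb3, a B-class ephrin, differed by -0.23 with a limma adjusted p of 0.147. Efnb2, the ephrin of arterial endothelium, and Efnb1 differed by -0.10 and 0.08.

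Robo2, the receptor of Slit2 in the mouse nephrogenic cord, ranged from 10.61 to 10.85 in MWF and from 10.29 to 10.58 in SHR. The strains did not overlap, and the difference was 0.27 ± 0.08 with a limma adjusted p of 0.0810. It was called where limma fitted an intensity trend to the variance together with its robust option, with a limma adjusted p of 0.0478. Its ligand Slit2, measured at exon level, had medians from 11.03 to 11.42 in MWF and from 11.05 to 11.22 in SHR, a difference of 0.08. Robo1, which is separated from Robo2 by 1 protein-coding gene on chromosome 11, differed by 0.06, and Robo4, an endothelial member, by -0.06.

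Slit3, a secreted ligand of Robos, lay at 9.27, 8.97, 9.13 and 8.84 in MWF and at 9.55, 8.95, 9.70 and 9.80 in SHR. SHR replicate 2 lay within the MWF arrays and the other 3 SHR arrays were above them. The difference was -0.45 ± 0.18 with a limma adjusted p of 0.173. Without SHR replicate 2 it was -0.63 with a limma adjusted p of 0.00844, and with array weights -0.56 with a limma adjusted p of 0.0370. With the sympathoadrenal covariate it was 0.0056. The Slit3 gene-level value equalled the mean of its exon probe sets within 0.01 on every array. Without the most different of them, the mean on all arrays differed by -0.39 with a limma adjusted p of 0.250. Slit1 differed by less than 0.01.

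Dcc lay at 6.54, 6.45, 6.45 and 6.42 in MWF and at 7.48, 6.61, 7.47 and 7.74 in SHR. SHR replicate 2 was above the MWF arrays but close to them. The difference was -0.86 ± 0.21 with a limma adjusted p of 0.0406. All MWF values lay below 6.56, the 10th percentile of gene-level values, and detection above background was not analysed, so no fold is given. Without SHR replicate 2 it was -1.10 with a limma adjusted p of 9.53e-05. Leaving out any other single array ended the call, at differences of -0.88 to -0.72 and limma adjusted p of 0.0787 to 0.0998. In these fits 3.63% to 4.54% of all probe sets were called. With the sympathoadrenal covariate the difference was -0.33 and the limma adjusted p 0.197. The mean of the Dcc exon probe sets without the most different of them gave -0.68 and a limma adjusted p of 0.0608. On medians of exon probe sets, Efna1, Ephb1 and Dcc were not called either, with limma adjusted p of 0.0669, 0.0966 and 0.110. Dcc and Ephb1 lay below the median of all gene-level probe set means, so a filter on dim probe sets removed them.

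The Unc5 receptors, through which netrins repel, did not pass. Unc5c ranged from 10.67 to 10.96 in MWF and from 10.92 to 11.05 in SHR, with a difference of -0.23 and a limma adjusted p of 0.122. MWF replicate 3, at 10.96, lay inside the SHR range and the other MWF arrays lay between 10.67 and 10.69. Without it Unc5c was called lower, by -0.30 with a limma adjusted p of 0.0403, beside 3.88% of all probe sets called. Unc5b, carried by endothelial cells, differed by -0.10 and Unc5a by 0.07. Of the ligands, Ntn3 ranged from 8.68 to 8.75 in MWF and from 8.51 to 8.67 in SHR. Its strains did not overlap, but the difference was 0.11 with a limma adjusted p of 0.292. Ntn1, the ligand of Dcc, differed by 0.15 with a limma adjusted p of 0.330.

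**Figure D2:**
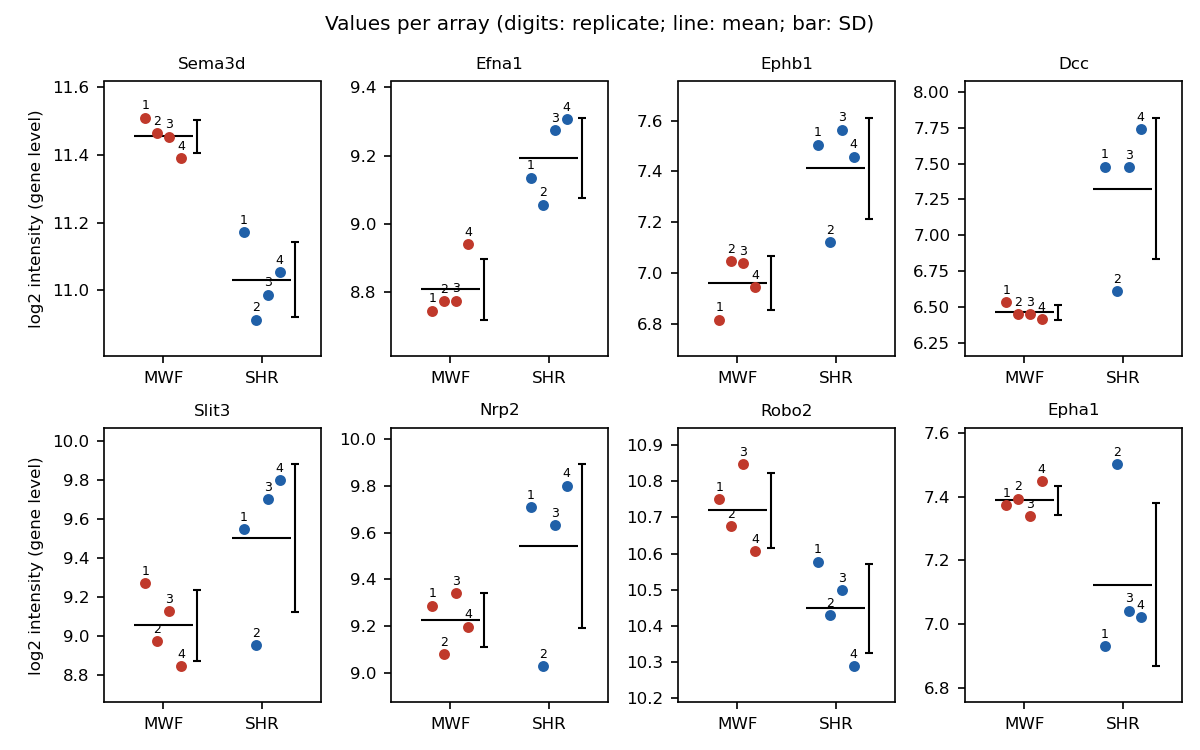
Gene-level log2 intensity of 8 guidance genes on each array, with the replicate as a digit, the mean as a line and the SD as a bar. Sema3d, Efna1, Robo2, Ephb1 and Dcc do not overlap between strains. In Dcc, Slit3, Nrp2 and Epha1, and less so in Ephb1, SHR replicate 2 lies away from the other SHR arrays.

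Without SHR replicate 2, 7 members were called, beside 10.7% of all probe sets. Epha1 and Sema3d were higher, and Dcc, Efna1, Ephb1, Nrp2 and Slit3 were lower. Without SHR replicate 2 and MWF replicate 1, the MWF array with the highest sympathoadrenal mean, 8 were called, those 7 and Sema5b as lower, beside 10.2%. With the sympathoadrenal mean as a covariate, 2 were called, Sema3d and Unc5cl, beside 2.42%. SHR replicate 2 is also the array on which the sympathoadrenal, neuronal, stroma, macrophage and endothelium lists sat at or just below the MWF level. The adjustment by the covariate is measured here, but the covariate followed strain except on SHR replicate 2, at 6.03, and in part MWF replicate 1, at 8.14. Differences adjusted by it rest largely on those arrays and are less precise. A call lost or a sign turned with it is therefore not a measure of any cell type. The part of such cells in the differences of Dcc, Ephb1, Nrp2 and Slit3 was not tested beyond it.

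**Figure D3:**
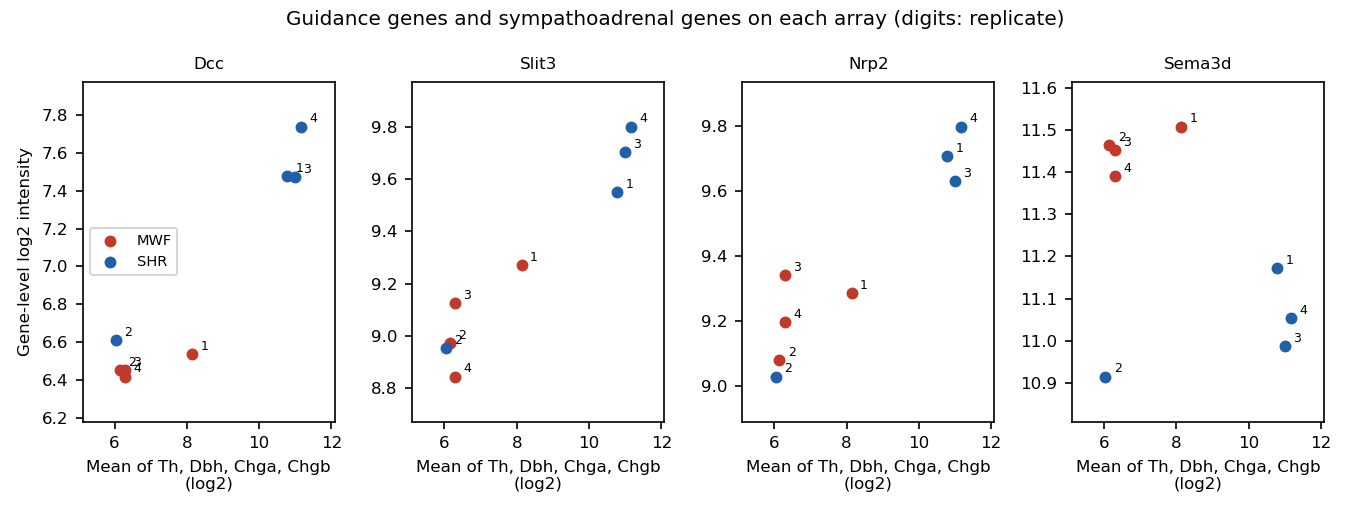
Gene-level log2 intensity of Dcc, Slit3, Nrp2 and Sema3d against the mean of Th, Dbh, Chga and Chgb on the same array, with MWF and SHR arrays in different colours and the replicate as a digit. SHR replicate 2, at 6.03 on the horizontal axis, lies near the MWF arrays for Dcc, Slit3 and Nrp2, and with the SHR arrays for Sema3d.

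Of the 11 genes measured at exon level and not at gene level, none was called on the median of its probe sets. Plxna4, a plexin used by sensory and sympathetic axons in the mouse, had medians of 8.02, 7.81, 7.67 and 7.64 in MWF and of 8.25, 7.90, 8.40 and 8.81 in SHR. The difference was -0.56 ± 0.17 with a limma adjusted p of 0.0916, and SHR replicate 2 lay within the MWF arrays. On the mean of its probe sets the difference was -0.52 with a limma adjusted p of 0.0279. Epha4, an Eph receptor that binds ephrins of both classes, had medians from 9.05 to 9.44 in MWF and from 9.52 to 9.59 in SHR. Its strains did not overlap, with a difference of -0.24 and a limma adjusted p of 0.170, and on means it was called at -0.23 with a limma adjusted p of 0.0289. Epha6 had SHR medians of 7.01 and 7.16 on replicates 1 and 3 and of 5.59 on replicate 2, with replicate 2 below all MWF arrays, which lay between 6.20 and 6.91. The other 8 differed by -0.13 to 0.20 on medians.

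The exon-level table shows how the probe sets along each gene behaved. Of the 1251 member probe sets, 16 were called, 6 higher and 10 lower in MWF, which is 1.28% beside 1.93% called over all probe sets (0.892% higher and 1.04% lower). They lay in 10 genes: Sema3d and Sema3b with 3 each, Dcc and Slit3 with 2 each, and Efna1, Ephb1, Plxna4, Robo4, Sema6a and Unc5a with 1 each. Values of the strains were fully apart in 101 of the 1251, beside 8.83% of all. Over all exon-level probe sets, 47.5% lay below 0. The genes that follow were named with their differences known, so their counts are a description. All 17 of Sema3d and 26 of the 27 of Robo2 lay above 0. All 19 of Nrp2 and all 6 of Efna1 lay below it, as did 33 of the 36 of Slit3, 29 of the 32 of Plxna4, 25 of the 30 of Dcc, 18 of the 19 of Unc5c and 17 of the 18 of Epha4. Probe sets of a gene share the same arrays and RNA and are not independent.

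**Figure D4:**
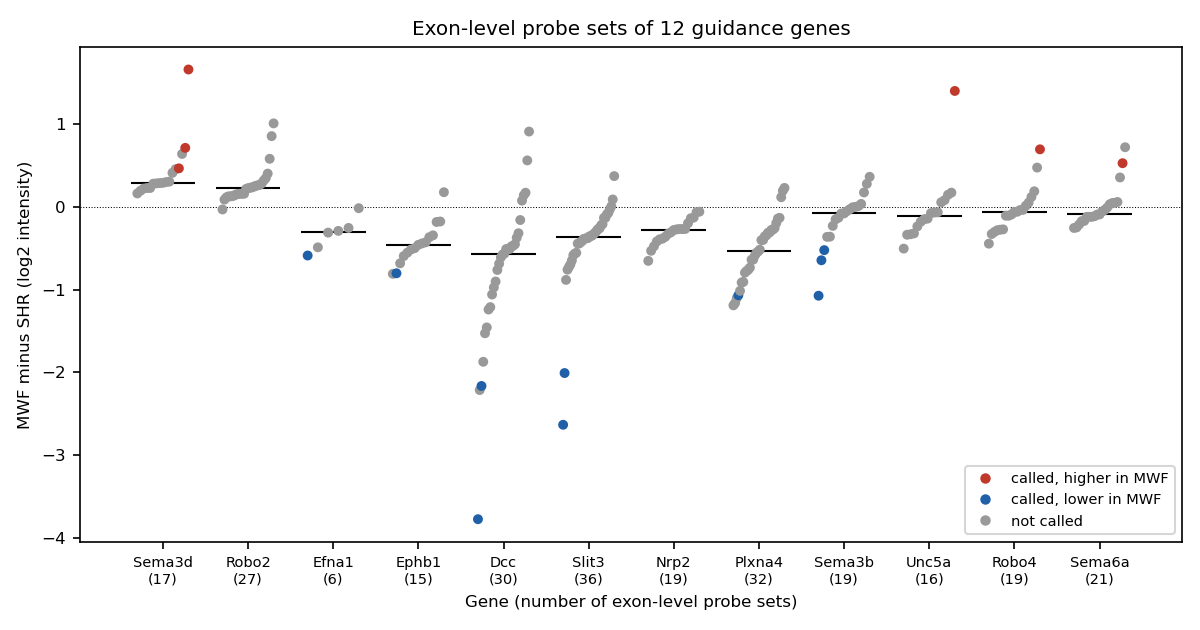
MWF minus SHR difference (log2) of each exon-level probe set in 12 guidance genes, sorted within a gene, with the gene's median as a line. The Dcc probe set at -3.78, the Slit3 probe sets at -2.63 and -2.01, the Unc5a probe set at 1.41 and the Sema3d probe set at 1.66 lie far from the rest of their genes.

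Without SHR replicate 2, 40 member probe sets were called, 4 higher and 36 lower, beside 2.91% of all probe sets (0.927% higher and 1.99% lower). Slit3 then had 9 called lower, Dcc 8, Plxna4 6, Ephb1 and Sema3b 3 each, and Epha6, Nrp2 and Sema5b 2 each. Sema3d had 2 called higher.

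Single probe sets of Dcc and Slit3 were far lower in MWF than their genes as a whole. A Dcc probe set lay at 5.19, 5.80, 5.23 and 5.55 in MWF and at 9.07, 8.64, 9.46 and 9.71 in SHR. SHR replicate 2 was again the lowest SHR array, at -0.77 from the mean of the others, beside -0.95 at gene level. It lay far above every MWF array here, whereas at gene level it was close to them. The difference was -3.78 ± 0.24, 13.7-fold, with a limma adjusted p of 8.65e-05, whereas the median over the 30 Dcc probe sets was -0.57. The MWF values of this probe set lay near the dim end of the scale, where the 10th percentile of all exon-level values was 4.97.

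A Slit3 probe set lay at 5.61, 5.49, 5.81 and 6.003 in MWF and at 8.26, 8.01, 8.50 and 8.68 in SHR. A further Slit3 probe set lay between 7.88 and 8.31 in MWF and at 10.06, 9.50, 10.21 and 10.39 in SHR. In both, every SHR array, replicate 2 included, was above every MWF array. The differences were -2.63 ± 0.17, 6.21-fold, and -2.01 ± 0.19, 4.02-fold, beside a median of -0.36 over the 36 Slit3 probe sets. The MWF values of the first of these also lay near the dim end of the scale, where the exon-level 10th percentile was 4.97.

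A test of exon usage, in which each probe set was taken relative to the mean of its gene's probe sets on the same array, called 14 of 1249 member probe sets, 9 higher and 5 lower. That is 1.12% beside 1.06% called over all probe sets (0.578% higher and 0.486% lower). They lay in 8 genes: 4 in Dcc, 2 each in Slit3, Plxna4 and Sema6a, and 1 each in Sema3b, Sema3d, Robo4 and Unc5a. The Slit3 probe set with the smallest p, the one at -2.01 before, differed by -1.56 ± 0.09 relative to its gene, with a limma adjusted p of 7.95e-05. The Dcc probe set differed by -2.99 ± 0.17 relative to its gene, with a limma adjusted p of 8.01e-05. Of the other 3 Dcc calls, 1 was lower relative to the gene, by -1.38, and 2 were higher. The lower one had MWF intensities of 4.05 to 4.94, below the exon-level 10th percentile of 4.97. The 2 others were higher by 1.70 ± 0.23 and 1.35 ± 0.23, with limma adjusted p of 0.0106 and 0.0328. Their own intensities were higher in MWF too, with means of 6.70 against 5.79 and of 6.83 against 6.27. The Slit3 and the first Dcc probe set remained called under each alternative that kept the probe set. A probe that lies over a sequence variant between the strains would give the same reading, which was not tested, since no probe positions were used here.

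**Figure D5:**
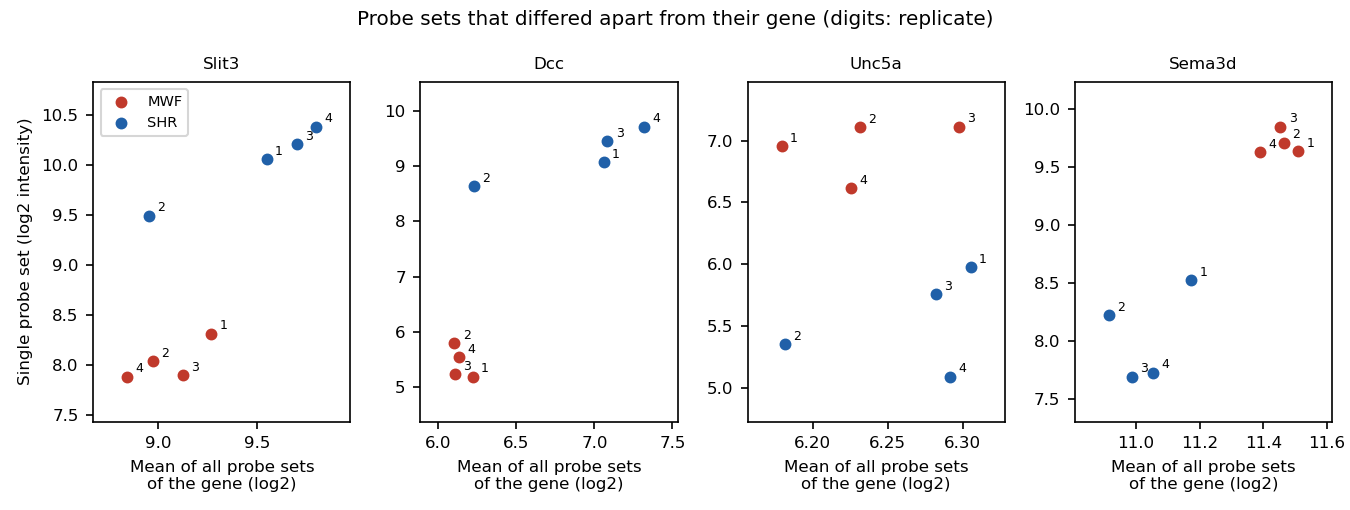
A single exon-level probe set of Slit3, Dcc, Unc5a and Sema3d against the mean of all probe sets of the gene on the same array (both log2), with the replicate as a digit. For Slit3 and Dcc, the MWF arrays lie below all SHR arrays, and below SHR replicate 2 in particular, whose gene mean is close to theirs.

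The Unc5a probe set went the other way, at 6.96, 7.11, 7.11 and 6.62 in MWF and 5.98, 5.35, 5.76 and 5.09 in SHR. The difference was 1.41 ± 0.20 with a limma adjusted p of 0.00992, while the median over the 16 Unc5a probe sets was -0.11. Relative to its gene, the value was 1.44 higher in MWF with a limma adjusted p of 0.00954. The Sema3d probe set with the largest difference ranged from 9.63 to 9.85 in MWF and from 7.69 to 8.53 in SHR. It was 1.66 ± 0.19 higher, 3.17-fold, beside a median of 0.29 over the gene's 17 probe sets. Without the most different probe set the Sema3d mean still differed, by 0.34 with a limma adjusted p of 0.0110. For Sema6a, a membrane-bound semaphorin, 2 probe sets were higher in MWF relative to their gene, by 0.53 and 0.72. The median over the 21 Sema6a probe sets was -0.09. For Plxna4, 2 were higher relative to their gene, by 0.64 and 0.75. Their own intensities were near level, with means of 10.79 in MWF and 10.67 in SHR and of 9.62 and 9.39, while the rest of the gene lay lower in MWF. In Sema3b, 3 called probe sets were lower in MWF, with differences of -1.07, -0.64 and -0.52, and the median over its 19 probe sets was -0.08. Relative to the gene, the calls in Sema3d, Unc5a, Sema6a and Plxna4 ended with the sympathoadrenal covariate, at limma adjusted p of 0.106 to 0.242. The Plxna4 call also ended when any array other than MWF replicate 4 or SHR replicate 2 was left out, at up to 0.0769. It ended with the median of the gene in place of the mean, at 0.0685, and with limma's diffSplice, at 0.496. The Sema6a call ended without MWF replicate 2, MWF replicate 4 or SHR replicate 3, at up to 0.0560.

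Gene-level and exon-level values overlap by construction. For 17 of 55 members the gene-level value equalled the mean of the exon probe sets within 0.01 on every array, so a single extreme probe set enters the gene-level value of such genes. On means of exon probe sets, 6 members were called, beside 8.75% of all genes: Sema3d higher, and Dcc, Efna1, Epha4, Ephb1 and Plxna4 lower. Without the most different probe set of each gene, 4 were called, beside 5.47%: Sema3d higher, and Efna1, Ephb1 and Plxna4 lower.

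A list of 64 genes that carry or modify guidance signals, such as cytoskeletal effectors, adaptors, kinases and small GTPases, was read beside the receptors. Of its 55 measured genes, 4 were called, 1 higher and 3 lower, with 29 above and 26 below 0. That is 7.27%, near the background of 6.58%, and the median difference was 0.01. Dpysl4, a collapsin response mediator protein of the semaphorin pathway, lay at 6.64, 6.81, 6.50 and 6.38 in MWF and at 7.45, 7.14, 7.34 and 7.41 in SHR. The difference was -0.75 ± 0.10 with a limma adjusted p of 0.00338, and SHR replicate 2 was above all MWF arrays. MWF replicates 3 and 4 lay below 6.56, the 10th percentile of gene-level values, so no fold is given. With the sympathoadrenal covariate the limma adjusted p was 0.0510. Nrcam, an adhesion molecule in semaphorin receptor complexes, ranged from 6.90 to 6.99 in MWF and from 7.25 to 7.44 in SHR, a difference of -0.43 with a limma adjusted p of 0.00395. SHR replicate 2, at 7.44, was the highest SHR array. On exon medians the limma adjusted p of Nrcam was 0.0528.

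Ntng1, a membrane-anchored netrin-G, ranged from 8.47 to 8.69 in MWF and from 7.82 to 8.24 in SHR. It was 0.57 ± 0.11 higher with a limma adjusted p of 0.0156, or 0.0502 without MWF replicate 3. Rras, a small GTPase that plexins inactivate, ranged from 9.69 to 10.05 in MWF and from 10.18 to 10.43 in SHR. The difference was -0.39 with a limma adjusted p of 0.0447, a call that ended when any 1 array other than SHR replicate 2 was left out, at up to 0.120. The Rras call also ended with quantile normalization, at 0.0528, on exon medians, at 0.0789, and on exon means without the most different probe set, at 0.0522. With the sympathoadrenal covariate the difference was -0.25 and the limma adjusted p 0.315. Dpysl3 and Crmp1, further collapsin response mediator genes that neurons express, had SHR replicate 2 with MWF: Dpysl3 lay between 8.18 and 8.54 in MWF and at 9.36, 8.34, 9.47 and 9.58 in SHR, and Crmp1 between 7.42 and 7.67 and at 8.09, 7.57, 8.20 and 8.46. Neither was called.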

How the data were processed

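The deposited tables hold log2 intensities, summarised and scaled between arrays by the authors before deposit. This is read from the values: array medians were nearly equal, 8.17 to 8.21 at gene level and 7.93 to 7.99 at exon level. Partek is the tool named, per the submitters' processing notes. Its version, the summarisation, normalization and array build were not given in the sources used here. Arrays have no read depth, and their number limits the precision.

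Gene names came from the annotation of the array platform, and older symbols were replaced by those of RefSeq (GRCr8). At gene level 12936 had 1 symbol, 184 several and 8251 none, and at exon level 172924, 1661 and 38482. All probe sets were fitted, named or not. The fit per table was limma 3.58.1 (lmFit, eBayes) under R 4.3.3, with strain as its single term, on 4 arrays against 4, with Benjamini-Hochberg adjustment over the whole table and a threshold of 0.05. Exon usage took each probe set minus the mean of its gene's probe sets, in genes with at least 3, with each probe set's own variance, over 169253 probe sets. In simulated data with 200 changed probe sets, the gene-level fit recovered 66% of changes of 0.5 and 94% of changes of 1, the exon-level fit 0% and 36%, and the exon usage fit 1% and 31%. Those 200 were planted among 21371, 213067 and 169253 probe sets, smaller shares than were called in the data (6.58%, 1.93% and 1.06%). The Benjamini-Hochberg adjustment depends on that share, so these recoveries do not give the power in the data.

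The members, lists, alternatives and naming rule were chosen with earlier results of these data known. The rule named called members, the member with the smallest p in each family, called genes of the signalling list and up to 6 members by exon usage. Members named beyond it were chosen after their values were seen. Alternatives covered the normalization, a variance trend (fitted with limma's robust option), weights per array, a filter on dim probe sets and a block by replicate number. They also covered arrays left out, a sympathoadrenal covariate, gene summaries and the exon usage method. 2 summaries, the means of exon probe sets with and without the most different, were added after the data were seen. No array values of the tables were left out, and no 2 arrays were identical. Detection calls were not analysed here.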

Additional observations from a re-analysis of the deposited data

Results flagged for a closer look

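In 4 of 42 groups of 4 arrays, a single array lay far from the other 3, past Dixon's 95% limit, where chance gives about 1 in 20 groups. For Efna1 at gene level, MWF replicate 4 lay at 8.94 and the other MWF arrays between 8.75 and 8.78. For Rras, MWF replicate 4 lay at 9.69 and the other MWF arrays between 9.995 and 10.05. For the Slit3 probe set with the smallest p in exon usage, MWF replicate 3 lay at -1.23 relative to its gene and the other MWF arrays between -0.96 and -0.94. For the Dcc probe set with the smallest p in exon usage, SHR replicate 1 lay at 2.01 relative to its gene and the other SHR arrays between 2.37 and 2.41. In each case the array lay on the same side of the other strain's arrays as the rest of its group.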

How the results depend on the processing

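Counts of calls moved with the processing. Over 21 named genes and exon usage probe sets and 355 comparisons with an alternative, 285 kept their direction and their side of the threshold, 61 lost the call, 6 gained it and 3 turned sign. Those 3 were Nrp2 (0.0689), Plxnd1 (0.0909) and Slit3 (0.0056) with the sympathoadrenal covariate, none of them called in the reported fit, and the cause was not tested. Items were named by their calls or p-values, and the alternatives reuse the same arrays, so kept directions are no independent support. Epha2, Efnb3, Ntn3, Nrp2, Plxnd1, Robo2 and Slit3, not called at gene level, had no call to lose. The 61 lost calls are therefore not to be read as a share of the 355. At gene level the count over all probe sets was 1407. It was 872 without dim probe sets (fewer probe sets tested), 2397 with array weights, 517 with the covariate, 2180 without SHR replicate 2 and MWF replicate 1, 822 on exon medians, 759 on exon means without the most different probe set, and 775 to 2279 with single arrays left out. The count of called members was 4. It was 2 without dim probe sets, 2 with the covariate, 8 without those 2 arrays, 1 on exon medians, and 1 to 7 with single arrays left out, the 7 being without SHR replicate 2. Of the signalling list 4 were called, 2 with the covariate, 8 without those 2 arrays, 7 on exon means, and 2 to 8 with single arrays left out. At exon level 4112 were called over all probe sets, 2172 with the replicate block, 1382 with the covariate, and 2405 to 6210 with single arrays left out. Of the 16 member probe sets, the counts were 9, 6 and 39 with the block, with the covariate and without those 2 arrays, and 9 to 40 with single arrays left out. For exon usage 1802 were called, 859 with the block, 647 with the covariate, 3244 with diffSplice, and 1174 to 1706 with single arrays left out. Of the 14 member probe sets, the counts were 7 without dim probe sets, 4 with the block, 3 with the covariate, 22 with diffSplice, and 7 to 13 with single arrays left out. The cause of these shifts was not tested where none is given. Same-numbered arrays of the strains deviated together at correlations of 0.284, 0.151, 0.0982 and 0.156, and since 1 of the 4 was not over 0.1 the numbers were not taken as pairs. That 3 of 4 correlated best with their own number is a hint from the data, and whether the arrays were paired was not settled. With the replicate block, 1312 probe sets and 3 members were called at gene level, and the calls of Ephb1 and Rras ended, at limma adjusted p of 0.0616 and 0.0832. The block also ended the exon usage calls of Sema3d, Sema6a and Plxna4, at 0.0834, 0.0850 and 0.0623.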
